A study of Rattus norvegicus with 16 samples.

Results

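The vacuolar ATPase (V-ATPase) is the proton pump that acidifies lysosomes, endosomes and secretory vesicles. Its V1 sector hydrolyses ATP in the cytosol and turns a rotor, and its V0 sector carries protons through the membrane. In cells of the nervous system the pump serves lysosomal degradation and the loading of synaptic vesicles, and reversible association of V1 with V0 sets its activity. Described here are 4 of its genes, Atp6v0d1, Atp6v1h, Atp6ap1 and Atp6v1c1, out of 6241 named genes and 12559 tested units in all, a unit being a named gene or a probe without a single gene name. They were taken as the features whose chip annotation gives exactly 1 of these symbols, with 2 features for Atp6v0d1 and 1 for each of the others, and features of 1 symbol were averaged per array. All 4 had enough values to be tested. The 4 genes were selected on measured log ratios of these arrays in earlier work, with the contrast not recorded, so their levels stand as a description without a test.

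The cells were neural stem and progenitor cells from embryonic day 14.5 neocortex of Sprague-Dawley rats, all grown in monolayer culture with 10 ng/ml FGF-2 (fibroblast growth factor 2), the mitogen that keeps them dividing. They were then kept with PDGF-AA (a homodimer of platelet-derived growth factor, 10 ng/ml, added daily) or without growth factor, for 12 h or 6 d. Each of the 16 two-colour arrays set RNA of 1 of these 4 groups (4 arrays each) against RNA of FGF-2-treated cells, with the sample in Cy5 on 2 arrays of a group and in Cy3 on the other two. At least 2 RNA preparations stand behind each group, but which arrays share one is not stated, so spreads and p-values describe hybridisations and may be partly technical.

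Values are ratios to the FGF-2 reference on a log2 scale, each array centred on its median. The log base is taken as 2 and the direction as sample over reference, neither of which is stated in the sources used here. The direction is likely because 9 of 9 measured DNA replication genes lay below 0 on every array at 12 h without factor, the highest level being -0.84. Arrays of the same dye orientation correlated at 0.0549 or more over all features, while the lowest correlation between any arrays was -0.45, between opposite dye orientations within a group. Rat RNA was read on mouse cDNA clones, so sequence differences and related genes can affect a spot, and a log ratio gives no absolute level. The labelled cell type could therefore not be checked by the presence of its markers. The array titles also carry a number whose meaning the labels do not give. The commonest is on all 8 arrays of 12 h and on 3 of 4 at 6 d without factor, but on 1 of 4 with PDGF-AA at 6 d, so values of that group are given with the title number as a term where this moves them. Such values rest on that 1 PDGF-AA array. In a bulk culture, fewer cells of a type and less RNA per cell cannot be told apart.

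The 4 genes lie on different chromosomes of the rat genome (RefSeq, GRCr8): Atp6v0d1 at chr19:50313268-50357248, Atp6v1h at chr5:19176849-19282516, Atp6ap1 at chrX:157231243-157238323 and Atp6v1c1 at chr7:71719326-71757191. The RefSeq promoter table held an entry for 2 of the 4, Atp6v0d1 and Atp6ap1, which are also the genes with the highest levels at 6 d without factor. The 250 bases before each gene start are printed 5′ to 3′ on the gene's own strand, to show whether they carry either of the short motifs searched. The windows are chr19:50357249-50357498 (minus strand) for Atp6v0d1 and chrX:157230993-157231242 (plus strand) for Atp6ap1. Capitals mark CACGTG in the window of Atp6v0d1 and CCAAT in that of Atp6ap1.
Atp6v0d1: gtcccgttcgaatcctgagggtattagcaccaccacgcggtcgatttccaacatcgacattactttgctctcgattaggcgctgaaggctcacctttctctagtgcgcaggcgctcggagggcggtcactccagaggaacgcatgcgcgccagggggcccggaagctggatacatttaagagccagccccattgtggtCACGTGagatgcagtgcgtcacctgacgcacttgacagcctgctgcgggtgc
Atp6ap1: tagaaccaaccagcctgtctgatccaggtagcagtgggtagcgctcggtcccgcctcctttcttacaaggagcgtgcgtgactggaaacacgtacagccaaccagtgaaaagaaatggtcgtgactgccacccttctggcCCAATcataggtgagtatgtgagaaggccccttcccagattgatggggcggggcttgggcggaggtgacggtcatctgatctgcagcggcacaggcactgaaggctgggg
CACGTG, a palindrome that reads alike on both strands, lies at the core of the element bound by the TFEB family of lysosomal regulators. It occurred once upstream of Atp6v0d1, starting at position -52 from the gene start, and not upstream of Atp6ap1. CCAAT, read on both strands (ATTGG on the opposite one), occurred once upstream of Atp6ap1, starting at position -110, and not upstream of Atp6v0d1. The motifs did not overlap. Of 33469 rat windows of the same length, 5.59% held CACGTG and 34% (11385 windows) held CCAAT, against 1 and 4 of the 9 measured V-ATPase genes with a window. A match is a stretch of letters and was not tested as a binding site.

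Atp6v0d1 encodes the d subunit of V0, the membrane-side seat of the rotor. With PDGF-AA at 12 h its log2 ratios were 0.45 and 0.35 on the Cy5 arrays and 0.26 and 0.03 on the Cy3 arrays. Without factor at 12 h they were 0.48 and 0.33 (Cy5) and 0.38 and 0.18 (Cy3). All 8 arrays at 12 h were above 0, and the groups overlapped. At 6 d the ratios with PDGF-AA were 0.04 and 0.25 (Cy5) and 0.28 and 0.37 (Cy3). Without factor at 6 d they were 0.64 and 0.40 (Cy5) and 0.64 and 0.49 (Cy3), each above every PDGF-AA array of that time. After the dye effect was taken out, the highest PDGF-AA array (0.39) overlapped the lowest array without factor (0.38).

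In the fit across all arrays, Atp6v0d1 stood at 0.27 ± 0.09 with PDGF-AA and 0.34 ± 0.09 without factor at 12 h, and at 0.23 ± 0.09 with PDGF-AA and 0.54 ± 0.09 without factor at 6 d (SE from limma, n = 4 arrays each). The last corresponds to 1.46 times the FGF-2 level if the base is 2. The order of levels was no factor 6 d, no factor 12 h, PDGF-AA 12 h and PDGF-AA 6 d, and the arrays of each neighbouring pair in that order overlapped. With the title number as a term, PDGF-AA at 6 d stood instead at 0.41, above the levels of both 12 h groups. That value rests on 1 PDGF-AA array of 6 d. The features of Atp6v0d1 did not read alike. The clone H3112G09_1 gave 0.52 with PDGF-AA and 0.64 without factor at 12 h, and 0.37 with PDGF-AA and 0.80 without factor at 6 d (SE 0.10). The clone H3111F04_1 gave 0.02 and 0.05 at 12 h and 0.10 and 0.28 at 6 d for the same pairs (SE 0.09). The mean level thus rests mostly on 1 clone, while both clones were highest at 6 d without factor.

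Atp6v1h encodes the H subunit of V1, which couples ATP hydrolysis to proton transport and silences free V1. With PDGF-AA at 12 h it read 0.62 and 0.17 on the Cy5 arrays and 0.23 and 0.01 on the Cy3 arrays. Without factor at 12 h it read 0.46 and 0.43 (Cy5) and 0.21 and 0.15 (Cy3). The 12 h groups overlapped, the PDGF-AA arrays spreading on both sides of the others. The 6 d ratios with PDGF-AA were 0.15 and 0.11 (Cy5) and -0.19 and -0.24 (Cy3), and without factor 0.37 and 0.39 (Cy5) and 0.08 and -0.12 (Cy3). Within each dye, both PDGF-AA arrays lay below both arrays without factor. The fitted levels were 0.26 with PDGF-AA and 0.31 without factor at 12 h, and -0.04 with PDGF-AA and 0.18 without factor at 6 d (SE 0.08 each). With the dye effect taken out, the 6 d arrays spanned -0.08 to -0.01 with PDGF-AA and 0.04 to 0.24 without factor, and did not overlap. How common such separation is among all tested units was not tested, so nothing is read from it. The lowest array without factor (0.04) lay apart from the rest of its group (0.21 to 0.24). The 6 d groups also differ in title number. With the title number as a term, PDGF-AA at 6 d stood at -0.09, a value that rests on 1 PDGF-AA array of 6 d. From highest to lowest the order was no factor 12 h, PDGF-AA 12 h, no factor 6 d and PDGF-AA 6 d. The upper neighbours overlapped, as did PDGF-AA 12 h (0.01 to 0.46) and no factor 6 d. Atp6v1h had a dye effect of 0.32, higher in Cy5 (adjusted p = 0.00611, limma), as had 18.9% of all tested units, while 20.1% were higher in Cy3 (39.1% in either direction).

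Atp6ap1 encodes Ac45, an accessory subunit of V0 that guides the pump through the secretory pathway. With PDGF-AA at 12 h its ratios were -0.09 and -0.07 on the Cy5 arrays and 0.50 and 0.61 on the Cy3 arrays. Without factor at 12 h they were 0.07 and -0.02 (Cy5) and 0.95 and 0.65 (Cy3). In each 12 h group the Cy3 arrays thus stood above the Cy5 arrays. Cells of 6 d with PDGF-AA gave ratios of -0.46 and -0.01 (Cy5) and 0.72 and 1.16 (Cy3), and without factor 0.68 and 0.28 (Cy5) and 1.05 and 1.45 (Cy3). All 4 arrays at 6 d without factor were above 0, whereas both Cy5 arrays with PDGF-AA were below it. The dye effect was -0.84 ± 0.12 (adjusted p = 8.2e-05, limma), close in size to the highest fitted level of the gene. The design balances it within each group, and with the dye in the model Atp6ap1 stood at 0.24 with PDGF-AA and 0.41 without factor at 12 h, and at 0.35 with PDGF-AA and 0.86 without factor at 6 d (SE 0.12 each). The level at 6 d without factor was the highest of the 4 genes in any group, 1.82 times the FGF-2 level if the base is 2, and higher than 98.7% of all tested units. Read from the Cy5 arrays alone, the means were -0.08 with PDGF-AA and 0.03 without factor at 12 h, and -0.23 with PDGF-AA and 0.48 without factor at 6 d. Read from the Cy3 arrays alone, they were 0.55 with PDGF-AA and 0.80 without factor at 12 h, and 0.94 with PDGF-AA and 1.25 without factor at 6 d. The sign against FGF-2 therefore depended on the dye in 2 of the 4 groups, both with PDGF-AA. The mean without factor exceeded that with PDGF-AA in either dye at either time, but these means leave out the title number. With the title number as a term, Atp6ap1 with PDGF-AA at 6 d stood at 0.78, and its difference from no factor at 6 d was -0.02. Both values rest on 1 PDGF-AA array of 6 d. Without that term, the order of the Atp6ap1 levels was no factor 6 d, no factor 12 h, PDGF-AA 6 d and PDGF-AA 12 h. With it, PDGF-AA at 6 d lay above no factor at 12 h. After taking out the dye effect, the first neighbouring pair did not overlap (0.63 to 1.10 against 0.23 to 0.53). The other neighbouring pairs did. Here too, how common such separation is among all tested units was not tested, so nothing is read from it.

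Atp6v1c1 encodes the C subunit of V1, which bridges the stator and is released when V1 leaves the membrane. With PDGF-AA at 12 h it read 0.65 and -0.13 on the Cy5 arrays and 0.29 and 0.18 on the Cy3 arrays. Without factor at 12 h it read 0.39 and 0.35 (Cy5) and 0.57 and 0.44 (Cy3), the tightest group for this gene. With PDGF-AA at 6 d the ratios were -0.09 and 0.38 (Cy5) and -0.45 and 0.46 (Cy3), and without factor -0.01 and -0.20 (Cy5) and 0.42 and 0.58 (Cy3). Arrays of both signs occurred in every group but no factor at 12 h. The fitted levels were 0.25 with PDGF-AA and 0.44 without factor at 12 h (SE 0.15 each). At 6 d they were 0.08 with PDGF-AA and 0.20 without factor (SE 0.15 each). With the title number as a term, the PDGF-AA level at 6 d was instead 0.19 above that at 12 h. That value rests on 1 PDGF-AA array of 6 d. All groups overlapped, so the order of its levels is within the spread of the arrays. The standard deviation of the dye-adjusted values was 0.34 with PDGF-AA and 0.05 without factor at 12 h, and 0.45 with PDGF-AA and 0.29 without factor at 6 d.

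**Figure D1:**
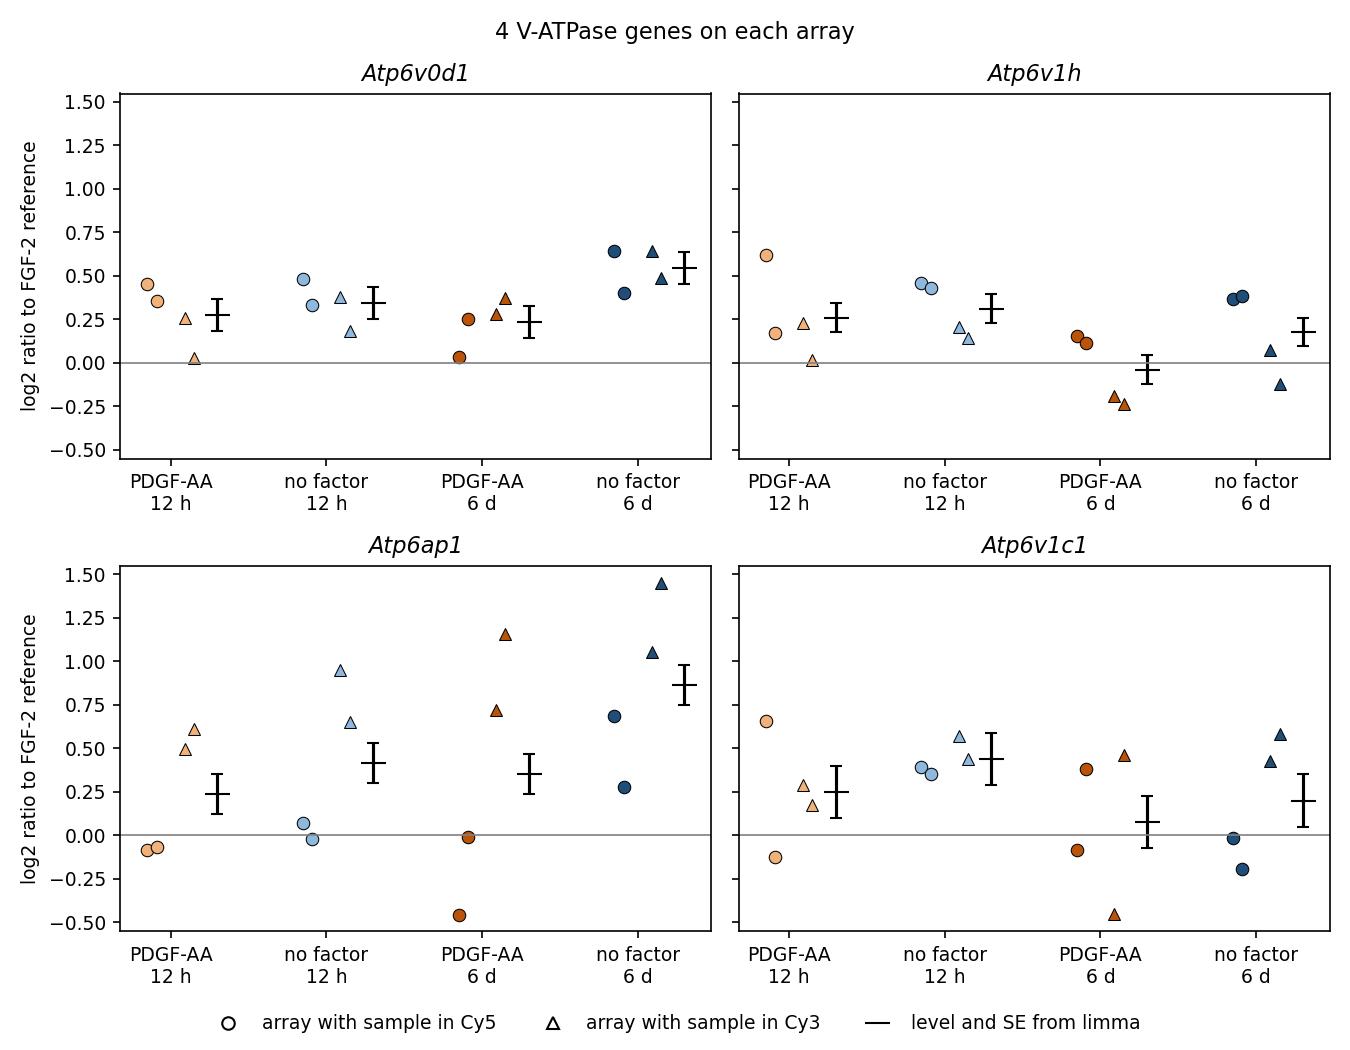
Log2 ratio to the FGF-2 reference (vertical axis) of each of the 4 V-ATPase genes on each array, by group. Circles are arrays with the sample in Cy5, triangles arrays with it in Cy3, and the bars give the fitted level and SE (n = 4 arrays); the Cy3 arrays of Atp6ap1 stand above its Cy5 arrays in every group, and its level at 6 d without factor is 0.86.

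The whole list of V-ATPase genes held 26 symbols, of which 12 were measured: 5 of 13 of V1, 6 of 10 of V0 and 1 of 3 accessory subunits. Against FGF-2 at 12 h, 0 of 12 passed the threshold of 0.05 with PDGF-AA (lowest adjusted p = 0.12, limma, and 3 at an unadjusted p under 0.05), and 3 passed without factor, Atp6v0d1, Atp6v1h and Atp6ap1, all higher. At 6 d, 1 passed with PDGF-AA, Atp6v1a, and 4 without factor, Atp6v0d1, Atp6ap1, Atp6v1a and Atp6v0b, all higher. Among all tested units, 0.661% were higher with PDGF-AA and 5.21% without factor at 12 h, and 1.9% with PDGF-AA and 6.99% without factor at 6 d. Lower than FGF-2 were 2.35% with PDGF-AA and 6.48% without factor at 12 h, and 1.32% with PDGF-AA and 6.73% without factor at 6 d. In either direction the shares were 3.01% with PDGF-AA and 11.7% without factor at 12 h, and 3.22% with PDGF-AA and 13.7% without factor at 6 d. At an unadjusted p under 0.05 (limma) were 1656 of the 12559 units with PDGF-AA and 2867 without factor at 12 h. At 6 d these were 1949 with PDGF-AA and 2901 without factor. The V-ATPase counts hold genes chosen for their values, so nothing is read from them. Of the other 8 genes of the list, 0 passed at 12 h with PDGF-AA and 0 without factor, and at 6 d 1 passed with PDGF-AA and 2 without factor. The median level of the 12 genes was 0.19 with PDGF-AA and 0.23 without factor at 12 h. At 6 d it was 0.12 with PDGF-AA and 0.20 without factor. The median of all tested units lay within 0.0043 of 0 in each group. The 12 include the 4 members chosen for their values, so this contrast is not read as a result. Of the other 8 genes, 7 had point estimates above 0 in each group but PDGF-AA at 6 d, where 5 had. The title number is not in the fit behind these levels.

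These calls depended on single arrays, except those of Atp6v0d1 and Atp6ap1 at 6 d without factor, both members chosen for their values. At 12 h without factor the count was 0 when replicate 1, 2 or 3 was left out, and Atp6v1h also missed the threshold without replicate 4. At 6 d without factor, Atp6v1a and Atp6v0b missed it when replicate 1, 3 or 4 was left out, and the count was 2, with Atp6v0d1 at 0.50 to 0.60 and Atp6ap1 at 0.78 to 0.95 over the 16 arrays left out in turn. For PDGF-AA at 6 d the count was 0 when replicate 2 was left out and 2 when replicate 1 was, Atp6ap1 being added.

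Atp6v1a encodes the catalytic A subunit of V1. At 6 d its ratios with PDGF-AA were 0.35 and 0.56 (Cy5) and 0.42 and 0.29 (Cy3), and without factor 0.38 and 0.34 (Cy5) and 0.11 and 0.30 (Cy3). All 8 arrays were above 0 and the groups overlapped. It rose against FGF-2 at 6 d by 0.40 ± 0.08 with PDGF-AA (adjusted p = 0.00665, limma) and by 0.28 ± 0.08 without factor (adjusted p = 0.0205, limma). Both calls were lost with the title number as a term (0.34 with PDGF-AA, adjusted p = 0.386, and 0.27 without factor, adjusted p = 0.1, limma), on arrays of the commonest title number alone and in a fit of that group alone, and the call without factor also without the dye term. Over 26 alternatives the adjusted p-values ran from 0.00247 to 0.399 with PDGF-AA (4 lost the call) and from 0.00416 to 0.118 without factor (7 lost it). At 12 h its level was 0.06 with PDGF-AA and 0.04 without factor. It was read by 4 features, and at 6 d without factor they gave 0.43, 0.48, 0.44 and -0.22, so 1 of them went against the mean.

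The other V1 genes did not pass against FGF-2 in any group. Atp6v1d, of the central rotor, stood at 0.24 with PDGF-AA and 0.26 without factor at 12 h. At 6 d it stood at 0.13 with PDGF-AA and 0.17 without factor. Its difference of 6 d from 12 h with PDGF-AA was -0.12, but 0.28 with the title number as a term. The latter rests on 1 PDGF-AA array of 6 d. Atp6v1e1, of the peripheral stalk, stood at 0.12 with PDGF-AA and 0.14 without factor at 12 h, and at -0.01 with PDGF-AA and 0.03 without factor at 6 d. The 4 features of Atp6v1b2, a nucleotide-binding B subunit, carry that symbol under a rat and a mouse gene ID and so fall outside the rule. Averaged all the same, a choice made after seeing the data, they lay between 0.10 and 0.15 in the 4 groups (SE 0.0918, lowest adjusted p = 0.443, limma).

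Among the V0 genes, Atp6v0b, a proteolipid of the membrane ring, rose by 0.48 ± 0.13 at 6 d without factor (adjusted p = 0.0176, limma), its array values being 0.25 and 0.49 (Cy5) and 0.39 and 0.79 (Cy3). With PDGF-AA at 6 d the values were -0.65 and -0.40 (Cy5) and 0.34 and 0.69 (Cy3), on both sides of 0 by dye. The difference of 6 d from 12 h with PDGF-AA was -0.24, but 0.27 with the title number as a term. The latter rests on 1 PDGF-AA array of 6 d. At 12 h the level of Atp6v0b was 0.24 with PDGF-AA and 0.20 without factor. Its dye effect was -0.51 (adjusted p = 0.00525, limma), in the direction of that of Atp6ap1.

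The V0 a subunits are isoforms that place the pump in different membranes. Atp6v0a2, the form of endosomes and Golgi, stood at 0.06 with PDGF-AA and 0.15 without factor at 12 h, and at 0.17 with PDGF-AA and 0.38 without factor at 6 d (adjusted p = 0.0583 for the last, limma). Tcirg1, the form of osteoclasts and lysosomes, lay between -0.18 and 0.02 in the 4 groups. Atp6v0a4, the form of kidney, lay between -0.0037 and 0.13. Atp6v0e2, a small membrane subunit, stood at 0.14 with PDGF-AA and 0.30 without factor at 12 h. At 6 d it stood at 0.33 with PDGF-AA and 0.21 without factor, and it passed in no group. The differences of 6 d from 12 h with PDGF-AA moved once the title number was a term. They went from 0.11 to 0.34 for Atp6v0a2 and from 0.19 to 0.47 for Atp6v0e2. For Tcirg1 they went from 0.07 to 0.16 and for Atp6v0a4 from -0.00074 to -0.19. The values with the term rest on 1 PDGF-AA array of 6 d.

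**Figure D2:**
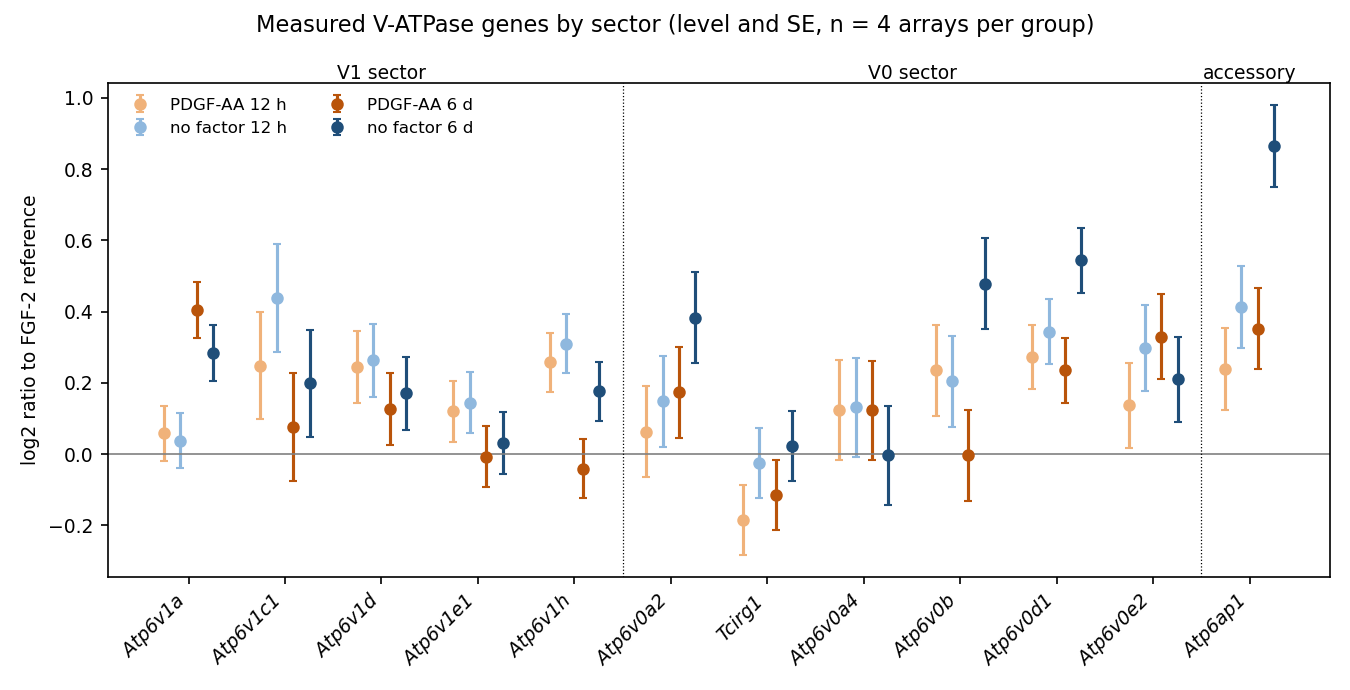
Fitted log2 ratio to the FGF-2 reference (vertical axis, with SE, n = 4 arrays per group) of the 12 measured V-ATPase genes, set out by sector and coloured by group. Atp6ap1 at 6 d without factor (0.86) is the highest value and Tcirg1 with PDGF-AA at 12 h (-0.18) the lowest. The title number is not in this fit.

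The direct difference between the groups of a time is given for the 4 genes as a description. At 12 h the difference of PDGF-AA from no factor was -0.07 for Atp6v0d1 (95% interval -0.34 to 0.20), -0.05 for Atp6v1h (-0.30 to 0.20), -0.17 for Atp6ap1 (-0.52 to 0.17) and -0.19 for Atp6v1c1 (-0.64 to 0.26). At 6 d it was -0.31 for Atp6v0d1 (-0.58 to -0.04), -0.22 for Atp6v1h (-0.47 to 0.03), -0.51 for Atp6ap1 (-0.86 to -0.17) and -0.12 for Atp6v1c1 (-0.57 to 0.33). With the title number as a term, applied to these differences after seeing the data, the 6 d values were -0.11 for Atp6v0d1 (-0.56 to 0.34), -0.25 for Atp6v1h (-0.70 to 0.20), -0.02 for Atp6ap1 (-0.49 to 0.44) and 0.18 for Atp6v1c1 (-0.61 to 0.96). The 6 d difference of Atp6ap1 thus nearly vanished and that of Atp6v1c1 changed sign. The intervals are not adjusted for the number of units, and both comparisons share the FGF-2 reference.

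After adjustment over all units, 0 of the 12 V-ATPase genes passed at 12 h (lowest adjusted p = 0.928, limma, and 0 at an unadjusted p under 0.05) and 0 at 6 d (lowest adjusted p = 0.418, and 3 at an unadjusted p under 0.05: Atp6v0d1, Atp6ap1 and Atp6v0b). Of all tested units 0.0159% passed at 12 h and 0.00796% at 6 d, so that a lack of calls was the rule on these arrays. At an unadjusted p under 0.05 (limma) were 681 of the 12559 units at 12 h and 1100 at 6 d. Atp6v0d1 and Atp6ap1 were chosen for their values, so nothing is read from the V-ATPase count at 6 d. Atp6v0b differed by -0.48 at 6 d, but by 0.01 once the title number was a term. Over the 8 V-ATPase genes other than the 4 members, the median difference was -0.02 at 12 h and -0.04 at 6 d, with 2 and 3 genes above 0, while that of all tested units was -0.0027 and 0.00067. Once the title number was a term, the 6 d median of the 8 was 0.05, with 6 above 0. The interaction of PDGF-AA with time passed for 0 of the 12 (lowest adjusted p = 0.995, limma, and 0 at an unadjusted p under 0.05) and for 0% of all units. At an unadjusted p under 0.05 (limma) it held for 497 of the 12559 units.

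**Figure D3:**
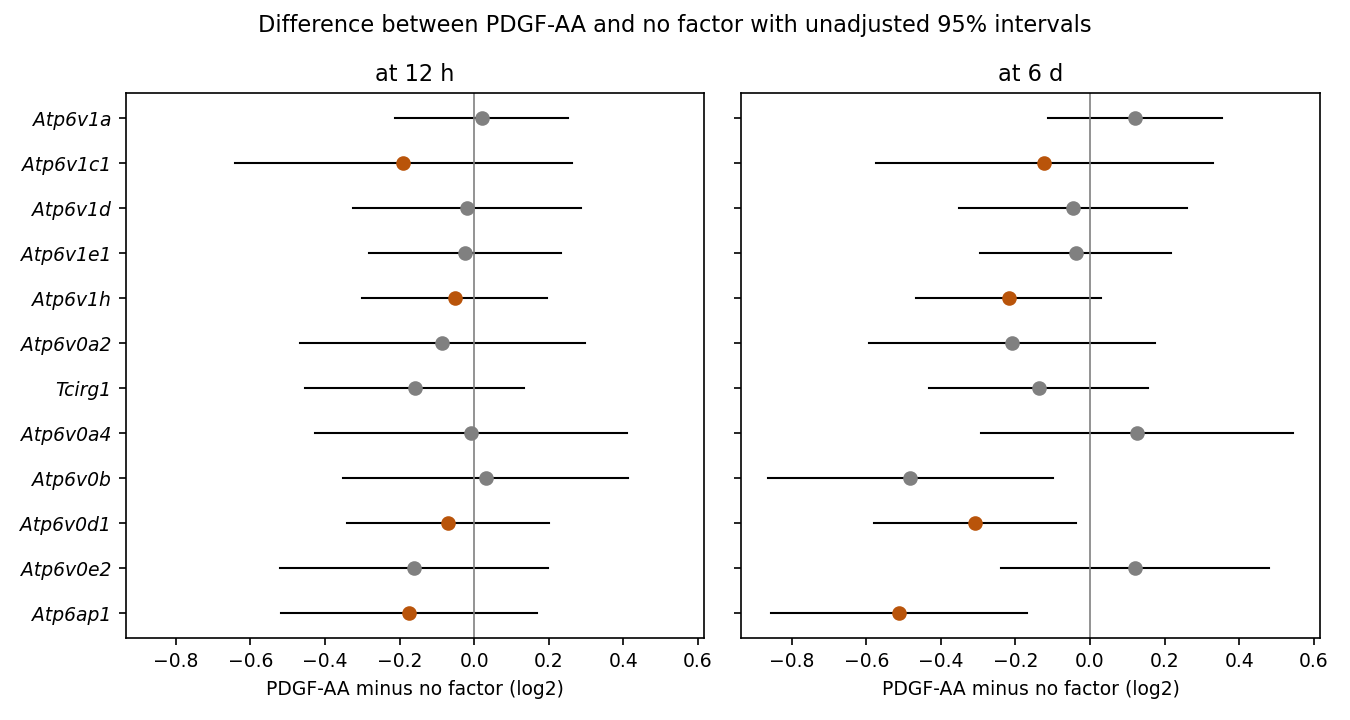
Difference of PDGF-AA minus no factor (horizontal axis, log2) at 12 h (left) and 6 d (right) for the 12 measured V-ATPase genes, with 95% intervals not adjusted for multiple tests and the 4 described genes in orange. At 12 h every interval crosses 0, and at 6 d the intervals of Atp6v0d1 (-0.58 to -0.04) and Atp6ap1 (-0.86 to -0.17) lie below it, as does that of Atp6v0b. The title number is not in this fit, and with it all 3 intervals cross 0 (-0.02 for Atp6ap1).

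Between 6 d and 12 h the differences of the 4 genes are likewise a description. With PDGF-AA, Atp6v1h differed by -0.30 (-0.55 to -0.05), Atp6v0d1 by -0.04, Atp6ap1 by 0.11 and Atp6v1c1 by -0.17. Without factor, Atp6ap1 differed by 0.45 (0.11 to 0.80), Atp6v0d1 by 0.20 (-0.07 to 0.47), Atp6v1h by -0.13 (-0.38 to 0.12) and Atp6v1c1 by -0.24 (-0.69 to 0.21). After adjustment 0 of the 12 V-ATPase genes passed with PDGF-AA (lowest adjusted p = 0.182, limma, and 2 at an unadjusted p under 0.05) and 0 without factor (lowest adjusted p = 0.217, and 2 at an unadjusted p under 0.05), beside 1.07% and 1.87% of all units (1.42% higher without factor). At an unadjusted p under 0.05 (limma) were 1415 of the 12559 units with PDGF-AA and 1430 without factor. With the title number as a term, Atp6ap1 with PDGF-AA at 6 d stood at 0.78 in place of 0.35 and Atp6v0d1 at 0.41 in place of 0.23. Atp6v1h stood at -0.09 in place of -0.04. Atp6v1c1, at 0.08 without that term, lay above its 12 h level with it. The differences of 6 d from 12 h with PDGF-AA were then 0.54 for Atp6ap1, 0.14 for Atp6v0d1, -0.34 for Atp6v1h and 0.19 for Atp6v1c1, those of Atp6v0d1 and Atp6v1c1 changing sign.

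The genes named here as nearest to each member are those of 6240 with the smallest root mean square difference over the 16 dye-adjusted array values, a measure of shape and size together. For Atp6v0d1 they were 1110008P14Rik (0.11), Ttc3 (0.12) and Dazap2 (0.13), set against a distance of 0.39 of Atp6v0d1 itself from 0. For Atp6v1h they were Ghitm (0.10), Mat2b (0.12) and Ube2e1 (0.12), against 0.24. For Atp6ap1 they were Plekhb2 (0.13), Cstb (0.15) and Golga7 (0.15), against 0.56. For Atp6v1c1 they were Irf9 (0.17), Ppox (0.17) and R3hdm4 (0.18), against 0.39. None of these was another V-ATPase gene, but only 12 such genes were measured, so nothing is read from this. Among the 4 members the closest pair was Atp6v0d1 and Atp6ap1 (0.23), followed by Atp6v0d1 and Atp6v1h (0.27), and the farthest was Atp6v1h and Atp6ap1 (0.47).

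Genes that assemble or regulate the pump were measured for 6 of 10 and gave 0 calls against FGF-2 in the 4 groups (lowest adjusted p = 0.0782, limma, with at most 2 at an unadjusted p under 0.05 in a group). At 12 h without factor 1 gene, Ccdc115, passed without replicate 1 of no factor at 6 d, under the title-number term, on arrays of the commonest number alone and with that group fitted alone. At 6 d without factor Wdr7 passed when replicate 2 was left out. Both were named after their values were seen. The factors of lysosomal mTORC1 signalling and the TFE family, which the V-ATPase serves as a platform, were measured for 7 of 17 and likewise gave 0 calls (lowest adjusted p = 0.153, limma, with at most 1 at an unadjusted p under 0.05 in a group). Of all tested units, 3.01% with PDGF-AA and 11.7% without factor were called in either direction at 12 h. At 6 d these shares were 3.22% and 13.7%. In lists of 6 and 7 genes, 0 calls lie near such shares, so nothing is read from them.

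Of the lysosome membrane genes, 10 of 16 were measured. At 12 h 1 was called higher than FGF-2 with PDGF-AA and 3 without factor. At 6 d 0 were called higher with PDGF-AA (1 at an unadjusted p under 0.05) and 3 without factor. None was called lower at either time. Of all tested units, 0.661% with PDGF-AA and 5.21% without factor were called higher at 12 h. At 6 d these shares were 1.9% and 6.99%. Scarb2, the receptor that sorts glucocerebrosidase, rose by 0.48 with PDGF-AA (adjusted p = 0.0132, limma) and by 0.66 ± 0.10 without factor at 12 h, and by 0.82 ± 0.10 without factor at 6 d. Lamp2, a coat protein of the lysosome membrane, rose by 0.51 at 12 h and by 0.87 at 6 d without factor. Also without factor, Laptm4a rose by 0.84 at 6 d. Npc2, a carrier of cholesterol that the list counts here, rose by 0.33 at 12 h without factor. At 12 h without factor, Lamp2 and Npc2 missed the threshold when replicate 2 or 3 was left out (count 1), and Npc2 also without replicate 1. At 12 h with PDGF-AA the count was 0 when replicate 1 or 2 was left out, Scarb2 being lost, and 3 when replicate 3 was, which also took the count at 6 d without factor to 5. The list's median was 0.26 with PDGF-AA and 0.30 without factor at 12 h, and 0.03 with PDGF-AA and 0.39 without factor at 6 d.

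Of the lysosomal hydrolases, which need the acid that the pump provides, 17 of 28 were measured. At 12 h 1 was called higher and 1 lower with PDGF-AA, and 6 higher and 1 lower without factor. At 6 d 3 were called higher and 1 lower with PDGF-AA, and 7 higher and 0 lower without factor. Of all tested units, 0.661% were called higher and 2.35% lower with PDGF-AA at 12 h, and 5.21% and 6.48% without factor. At 6 d these shares were 1.9% and 1.32% with PDGF-AA, and 6.99% and 6.73% without factor. The list also counts Psap, the precursor of the saposins, with the hydrolases. At 6 d without factor Psap rose by 1.65 ± 0.16 and Gaa, the acid alpha-glucosidase, by 1.15. In that group Smpd1, the acid sphingomyelinase, rose by 1.05 and the peptidase Tpp1 by 0.50. At 6 d with PDGF-AA Psap rose by 0.68, Smpd1 by 0.55 and Arsa by 0.34, and Naglu fell by 0.34. At 12 h Gaa rose by 0.59 with PDGF-AA and by 0.88 without factor, and Arsb, which degrades sulfated glycans, fell by 0.40 with PDGF-AA and by 0.70 without factor. Psap rose by 0.72 and Fuca1, a fucosidase, by 0.57 at 12 h without factor.

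Several of these calls also rested on single arrays. Gaa, Arsb and Fuca1 at 12 h and Psap, Gaa and Smpd1 at 6 d, all without factor, passed without any single array. At 12 h without factor 4 hydrolases passed without replicate 2 or 3, and Psap was among those lost. At 6 d without factor 4 passed without replicate 1 or 2 and 3 without replicate 3, Tpp1 being lost without replicate 2 or 3. With PDGF-AA at 6 d 0 passed without replicate 2 or 4 and 1 without replicate 3. With PDGF-AA at 12 h the calls of Gaa and Arsb were both lost without replicate 1, 2 or 4. Arsb was lost there without 11 of the 16 single arrays, and Arsa with PDGF-AA at 6 d without 8 of them. The title number mattered as well. With it as a term, Man2b1, Arsa and Fuca1 were lost at 6 d without factor, which left 4 hydrolases. With PDGF-AA at 6 d Naglu and Arsa were lost and Gaa was added, giving 3 hydrolases, and 2 membrane genes, Lamp2 and Laptm4a, were called there. Without the dye term, and in a fit of the group alone, 0 hydrolases passed with PDGF-AA at 6 d. Between PDGF-AA and no factor at 6 d, 0.00796% of all 12559 tested units passed, and 1100 were at an unadjusted p under 0.05 (limma). In that comparison 0 of 10 membrane genes (3 at an unadjusted p under 0.05) and 0 of 17 hydrolases (6 at an unadjusted p under 0.05) passed in limma. Without replicate 4 of PDGF-AA at 6 d these counts were 2 (Lamp2 and Scarb2) and 3 (Gaa, Psap and Smpd1), all lower with PDGF-AA, whereas the count of V-ATPase genes was 0 without any single array.

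**Figure D4:**
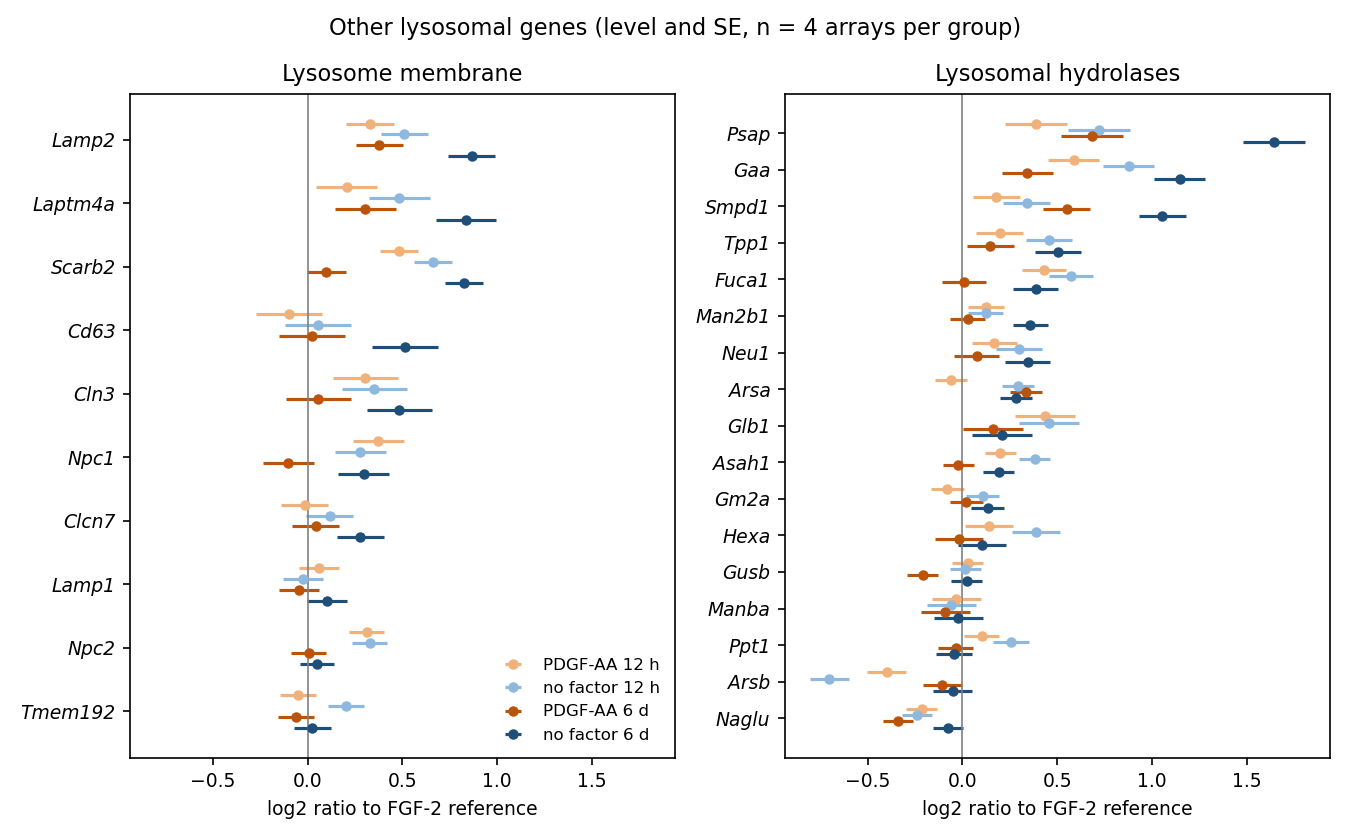
Fitted log2 ratio to the FGF-2 reference (horizontal axis, with SE, n = 4 arrays per group) of the measured lysosome membrane genes (left) and lysosomal hydrolases (right), coloured by group. Psap (1.65), Gaa (1.15) and Smpd1 (1.05) at 6 d without factor lie farthest to the right and Arsb at 12 h without factor (-0.70) farthest to the left.

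Some markers of differentiated cells also differed from FGF-2 in these groups, not always in the pattern of the pump genes. Their part in the V-ATPase levels was not tested. Against FGF-2, 0 of 5 measured astrocyte markers were called higher with PDGF-AA at 12 h (2 at an unadjusted p under 0.05, limma), 1 without factor at 12 h, 2 with PDGF-AA at 6 d and 4 without factor at 6 d, with 1 lower without factor at 12 h. For 3 oligodendrocyte lineage markers the counts were 0 (1 at an unadjusted p under 0.05, limma), 1, 2 and 3 in the same groups. For 5 neuron markers they were 1, 2, 0 (2 at an unadjusted p under 0.05, limma) and 2, with 1 lower without factor at 12 h. Of all tested units, 0.661%, 5.21%, 1.9% and 6.99% were called higher in the same groups. In either direction, 1656, 2867, 1949 and 2901 of the 12559 units were at an unadjusted p under 0.05 there (limma). The mean over 5 of 12 astrocyte markers per array was -0.01 to 0.31 with PDGF-AA and 0.16 to 0.75 without factor at 12 h, and 0.13 to 1.29 with PDGF-AA and 0.88 to 1.74 without factor at 6 d. The mean over 3 of 14 oligodendrocyte lineage markers was 0.02 to 0.40 with PDGF-AA and 0.19 to 0.74 without factor at 12 h, and 1.02 to 1.97 with PDGF-AA and 1.00 to 2.32 without factor at 6 d. The mean over 5 of 16 neuron markers was 0.09 to 0.31 with PDGF-AA and -0.12 to 0.32 without factor at 12 h, and -0.23 to 0.17 with PDGF-AA and 0.20 to 0.45 without factor at 6 d. The mean over the 12 V-ATPase genes per array was -0.0032 to 0.33 with PDGF-AA and 0.16 to 0.28 without factor at 12 h. At 6 d it was -0.04 to 0.30 with PDGF-AA and 0.19 to 0.41 without factor. This mean includes the 4 members chosen for their values. Microglia, which are rich in lysosomes, had 4 of 12 markers measured, with array means from -0.24 to 0.33, and endothelium 4 of 10, from -0.28 to 0.28. In limma 0 markers of either were called against FGF-2 in any group (at an unadjusted p under 0.05, 0 of microglia and at most 1 of endothelium).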

How the data were processed

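Per the labels' protocols, 40 micrograms of total RNA were labelled with Cy3 or Cy5 by reverse transcription, hybridised to mouse cDNA chips of about 15000 spots, and read with a ScanArray instrument and the QuantArray software. The deposited values are 1 log ratio per feature and array, taken here as log2. Background correction and normalisation by the authors are not given in the sources used here. Deposited array medians lay between -0.0053 and 0.0387. Spots over 1 on Cy5 arrays kept their sign on Cy3 arrays in 63.3% to 89.8% of cases per group. Swapped arrays were therefore taken as already turned. The ground for this is weakest with PDGF-AA at 12 h, which had the lowest share. Of 15151 features, 8833 had exactly 1 symbol, 606 several and 5712 none, and 1 had missing values. Gene names are those of the chip's annotation.

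Arrays were centred on their median, features of 1 symbol averaged, and units with at least 3 values in every group fitted with limma 3.58.1 (R 4.3.3) over all 16 arrays, using 1 coefficient per group and a dye term, followed by eBayes. Tests were two-sided, with Benjamini-Hochberg adjustment over 12559 units and a threshold of 0.05. The FGF-2 reference counts as 1 control sample on every array; comparisons with it leave out its spread. Precision is limited by how many arrays there are. The fit was tested on simulated data. The members and lists were chosen with earlier results of these data known. Named genes are the 4 members, the other measured V-ATPase genes, at most 4 called genes with the largest change per other list and comparison, and the 3 genes nearest to each member. A gene of 5 or fewer counted at an unadjusted p is named after its values were seen. Replicate numbers were given in accession order and do not pair arrays. Alternatives changed the dye term, centring, scaling, fitted groups, title number, feature summary, missing-value filter, moderation and each array left out. Scaling used a common median absolute value.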

Additional observations from a re-analysis of the deposited data

Results flagged for a closer look

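Atp6v1h on replicate 3 of no factor at 6 d lay apart from the other 3 arrays of its group, at a dye-adjusted log2 ratio of 0.0392 against 0.2081 to 0.2365, with a gap of 0.856 of the group's range. It was 1 of 48 pairs of a V-ATPase gene and a group examined, and chance marks about 1 in 20 groups. Between 6 d and 12 h without factor, Arsb differed by 0.651 (adjusted p = 0.028, limma) and Smpd1 by 0.7159 (adjusted p = 0.0446, limma), each measured by 1 feature. Arsb missed the threshold without 6 of the 16 single arrays and Smpd1 without 12 of them.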

How the results depend on the processing

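No paired analysis was possible because the labels number no replicates across groups. Over 26 settings, 0 called a V-ATPase gene lower than FGF-2, and no called value changed sign. Of the 136 member levels under settings other than single arrays left out, 124 moved by less than the SD between arrays. All 256 with 1 array left out did so too. Nothing is read from these counts. Leaving out an array of another group does not move a level, because the dyes are balanced within each group. Leaving out 1 of the 4 arrays of a group can shift its mean by only part of that SD. Some other settings, such as leaving out the dye term, return the same level by construction. The 12 of the 136 that moved more concern PDGF-AA at 6 d and the clones of Atp6v0d1. With arrays of the commonest title number alone, PDGF-AA at 6 d stood at 0.7726 for Atp6ap1, 0.422 for Atp6v0d1 and -0.0857 for Atp6v1h. With the title number as a term, it stood at 0.7758, 0.4114 and -0.0861 for the same genes. Both rest on 1 PDGF-AA array of 6 d, and the cause was not tested. By clone, a choice made after seeing the data, Atp6v0d1 gave 0.0216 (H3111F04_1) and 0.5247 (H3112G09_1) with PDGF-AA at 12 h, 0.0454 and 0.6421 without factor at 12 h, and 0.2835 and 0.804 without factor at 6 d. V-ATPase genes called against FGF-2 numbered 1 at 12 h and 2 at 6 d without factor when the dye term was left out, with the dye effects then left in the spread. With PDGF-AA at 6 d they numbered 0 with the commonest title number alone, 0 with the title number as a term and 0 when that group was fitted alone, with fewer arrays. With 1 array left out they ranged from 0 to 4 at 12 h and from 2 to 5 at 6 d without factor, from 0 to 2 with PDGF-AA at 6 d, and stayed at 0 for PDGF-AA at 12 h, for both differences of PDGF-AA from no factor, for both differences of 6 d from 12 h and for the interaction. Signal over background is unknown, as the values are ratios alone.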
